A study of Mus musculus with 6 samples.

Results

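The WNT pathway was described gene by gene in YUMM3.3 melanoma tumors from mice treated with vehicle or Rigosertib (RGS). The genes were taken by name from the protein-coding rows of the count table: the WNT ligands, the ligand secretion factors *Porcn* and *Wls*, the Frizzled receptors, the co-receptors *Lrp5*, *Lrp6*, *Ror1* and *Ror2*, the secreted Dkk and Sfrp antagonists, the Dishevelled genes, *Axin1*, *Axin2*, *Apc* and *Ctnnb1*, the 4 TCF and LEF factors, and the feedback inhibitors *Nkd1*, *Nkd2*, *Rnf43* and *Znrf3*. This gave 56 of the 40166 genes in the table. *Fzd6* and *Dkk1* were not analysed here. YUMM3.3 is 1 BRAF-mutant mouse melanoma line, and the same line was injected under the skin of the lower back of C57BL/6 mice in both groups. 3 tumors came from mice given water as the vehicle, labelled vehicle 7, 8 and 9, and 3 from mice given RGS at 300 mg/kg by oral gavage, labelled RGS 10, 11 and 12. Treatment lasted 17 days, with dosing on 5 days a week. Tumors were set up in male or female mice of 8 to 10 weeks, and the sex of these mice was not stated. RGS is a small molecule studied as a RAS-targeted agent.

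WNT proteins are secreted lipid-modified ligands. They need Porcupine (*Porcn*) for the lipid and Wntless (*Wls*) for export, and they bind Frizzled receptors together with LRP or ROR co-receptors. In the beta-catenin branch, Dishevelled relays the receptor state to a destruction complex of Axin, APC, casein kinase and GSK3, which otherwise marks beta-catenin (*Ctnnb1*) for degradation, and stabilized beta-catenin then works with TCF and LEF factors on target genes. In the melanocyte lineage this branch is known for its role in cell specification and for regulating *Mitf*, while ligands such as WNT5A and WNT11 are best known for beta-catenin-independent signaling in cell movement and polarity.

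The measurement was bulk RNA sequencing, given as whole read counts per gene. Total counts were between 13837932 and 32555494 per tumor, and every vehicle tumor was sequenced more deeply than every RGS tumor, so levels are given as CPM, in which each count is divided by the library size after TMM scaling for library composition. Levels of different genes are compared as TPM, which divide by gene length and carry no TMM scaling. A count of 0 in a tumor allows up to 3 counts, or 0.0856 to 0.226 CPM depending on the tumor, and covers counting error only. The labels call the samples tumors, but the melanocyte markers *Mlana*, *Tyr*, *Dct*, *Kit* and *Slc45a2* had 0 counts in all 6 tumors and *Sox10* had 18 counts in RGS 11 and 0 in the other 5. *Mitf* had 74 to 261 counts and *Gpnmb* 2508 to 10579, and of the 8 melanocyte and neural crest markers tested only *Ngfr* was called, with a log2 fold change of 1.53 (adjusted p = 4.79e-04 in edgeR). The 15 markers of that list summed to 243 to 325 CPM in vehicle and 228 to 241 CPM in RGS tumors. Almost all of this sum came from *Gpnmb*, at 228 to 302 CPM in vehicle and 189 to 217 CPM in RGS tumors. The pan-leukocyte gene *Ptprc*, looked up after the other values were seen, had 0 counts in all 6 tumors, as did *Cd3e*, *Cd3d*, *Cd3g*, *Cd8a*, *Adgre1* and *Ms4a1*. Whether these libraries hold RNA of whole tumors with their host cells is therefore unsure. In a bulk sample, fewer cells of a type and less RNA per cell cannot be told apart.

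Of the 56 WNT genes, 38 had enough counts to be tested (a median of at least 5 counts in at least 1 group) and 18 did not. With RGS, 5 of the 38 were higher and 3 were lower at an adjusted p under 0.05 in edgeR's quasi-likelihood test, and 30 were not called. The genes that rose were the ligands *Wnt11* and *Wnt7b*, the receptor *Fzd3*, the relay protein *Dvl3* and beta-catenin itself, and those that fell were the ligand *Wnt10b*, the receptor *Fzd4* and the antagonist *Sfrp1*. These shares, 13.2% higher and 7.89% lower, were read against 16.3% higher and 16.5% lower among all 15355 tested genes. Neither exceeded that background in this fit. The comparison of higher genes depended on the method. With DESeq2, 8 of the 38 were higher against 2767 of the 15355, and with limma voom 11 against 3407, both larger shares than over all genes. *Wnt11*, *Wnt7b* and *Fzd3* rose and all 3 lower genes fell by at least 1 on the log2 scale, a size passed upward by 7.61% and downward by 9.44% of tested genes. Values of the groups did not overlap for 18 of the 38, or 47.4%, against 45.8% of all tested genes. The median log2 fold change of the 38 was 0.18, and that of all tested genes was -0.05.

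**Figure D1:**
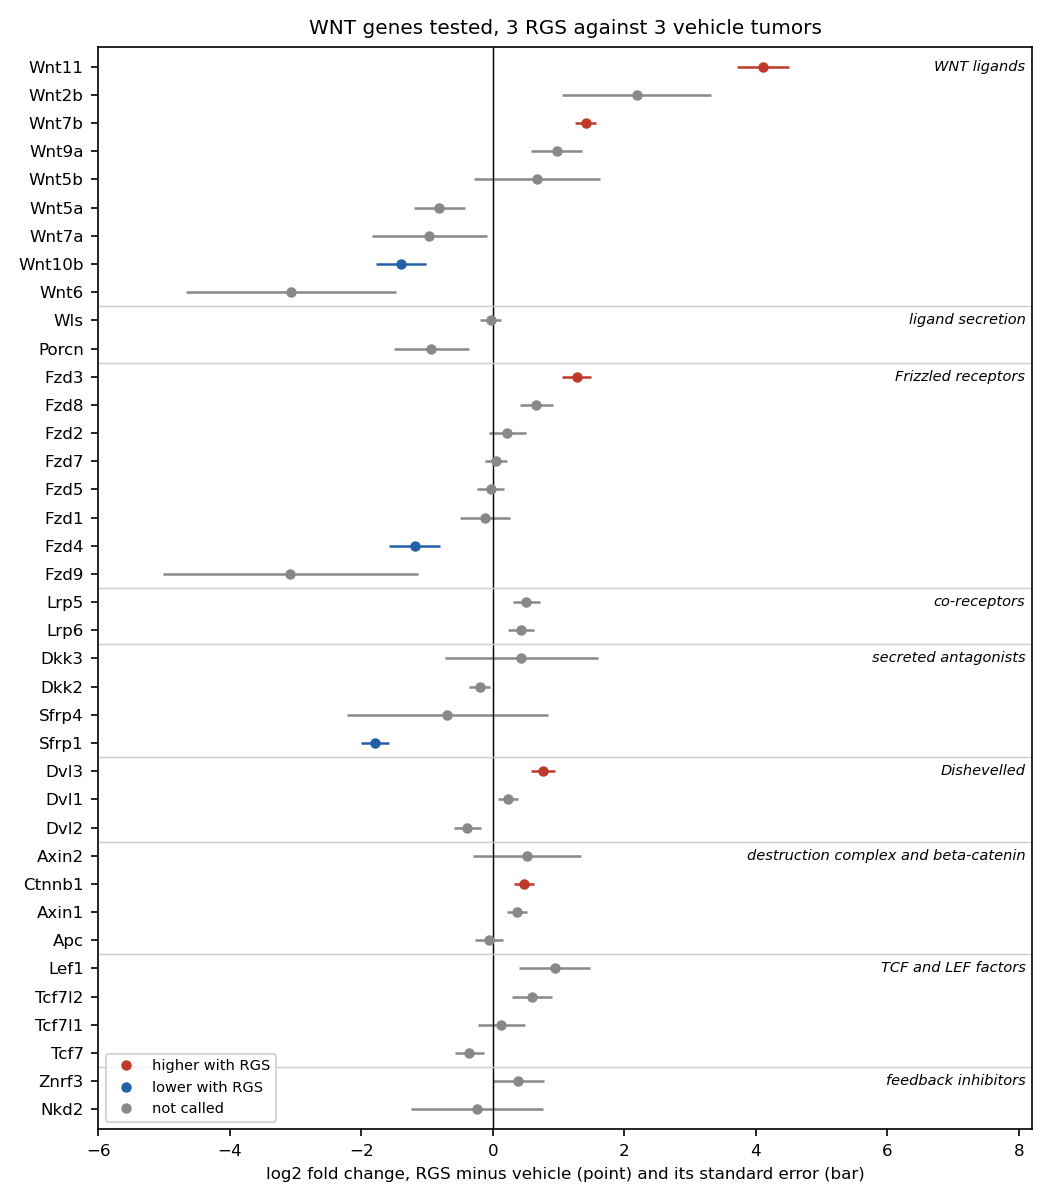
Log2 fold change (RGS minus vehicle, x axis) of the 38 tested WNT genes, grouped by role, with the standard error as a bar and color for the call at an adjusted p under 0.05. *Wnt11* stands farthest to the right at 4.11, while *Wls*, *Fzd7*, *Fzd5* and *Apc* lie near 0 with narrow bars.

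The call set depended on the scaling and on single tumors. With library size alone as the scaling, the median over all tested genes moved to -0.19 and the split over all genes went from 2503 higher and 2533 lower to 1870 higher and 3152 lower. Under that scaling *Ctnnb1* was not called. Without vehicle 7, which was the deepest library, 8 WNT genes were higher in place of 5, the additional ones being *Fzd8*, *Lrp5* and *Lrp6*. Over all tested genes, 2698 of 15942 were then higher, in place of 2503 of 15355. *Wnt11*, *Wnt7b*, *Fzd3*, *Dvl3* and *Sfrp1* were called in all 16 alternatives in which each gene was refitted.

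*Wnt11*, a ligand best known for beta-catenin-independent signaling, made the largest move of any WNT gene (ENSMUSG00000015957.12, chr7:98835112-98855195 in GRCm38, plus strand). It had 44, 19 and 25 counts in vehicle 7, 8 and 9 and 278, 226 and 363 counts in RGS 10, 11 and 12. In CPM these were 1.26, 0.677 and 1.07 against 13.2, 17.0 and 22.2. All 3 RGS tumors lay far above all 3 vehicle tumors. The log2 fold change was 4.11 (SE 0.39, adjusted p = 2.99e-07 in edgeR), a 17.3-fold rise, and it stayed between 3.88 and 4.32 when any tumor was left out. *Wnt10b*, a ligand of the beta-catenin branch, moved the other way (ENSMUSG00000022996.15, chr15:98770712-98778150, minus strand). Its vehicle tumors gave 9.56, 8.91 and 14.6 CPM and its RGS tumors 5.16, 4.44 and 2.88 CPM, with no overlap. Its log2 fold change was -1.40 (SE 0.38, adjusted p = 0.00784 in edgeR), and without vehicle 9, the highest tumor, it was -1.14 with an adjusted p of 0.0556.

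The start regions of these ligands are shown because they moved in opposite directions and both had a sequence entry, whereas *Wnt7b*, which also rose, had none. The sequences are from RefSeq (GRCm38.p6) and run 5′ to 3′ on the strand of the gene, from 250 bases before its start to 50 after. Capitals mark the core of the TCF and LEF motif, CTTTGA read on either strand.
*Wnt11*, chr7:98834862-98835161, plus strand: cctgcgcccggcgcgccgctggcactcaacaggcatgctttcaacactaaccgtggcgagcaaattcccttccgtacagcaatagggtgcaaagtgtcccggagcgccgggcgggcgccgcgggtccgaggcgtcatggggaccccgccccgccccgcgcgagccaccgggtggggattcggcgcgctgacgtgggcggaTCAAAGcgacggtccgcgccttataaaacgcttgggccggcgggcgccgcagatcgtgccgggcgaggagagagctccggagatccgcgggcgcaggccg
*Wnt10b*, chr15:98778101-98778400, minus strand: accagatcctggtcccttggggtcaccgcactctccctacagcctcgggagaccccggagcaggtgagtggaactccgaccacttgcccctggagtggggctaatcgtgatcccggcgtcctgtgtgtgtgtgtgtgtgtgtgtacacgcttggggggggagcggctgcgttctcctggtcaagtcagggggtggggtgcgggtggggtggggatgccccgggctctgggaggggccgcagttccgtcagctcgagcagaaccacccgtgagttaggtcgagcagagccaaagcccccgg
The *Wnt11* window held 1 match, which began 50 bases before the start, and the *Wnt10b* window held none. The same letters were found in 3 of the 39 WNT genes that had such a window and in 16.0% of all 32851 windows, and among the called genes only *Wnt11* of the 5 with a window had them. *Wnt7b*, *Fzd3* and *Sfrp1* had no entry. *Wnt11* and *Ctnnb1* each had 2 windows, and only the window nearest to the gene start of the count table was searched. For *Ctnnb1* that window was set on a start 4184 bases away. A match is a description of these letters only.

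*Wnt7b*, a ligand of the beta-catenin branch, was the most abundant WNT ligand in every tumor (ENSMUSG00000022382.15, chr15:85535437-85582473, minus strand). It measured 74.3, 59.1 and 54.7 CPM in the vehicle tumors and 169, 168 and 164 CPM in the RGS tumors. The RGS tumors were closely spaced and all above the vehicle tumors. Its log2 fold change was 1.41 (SE 0.16, adjusted p = 2.8e-06 in edgeR), a 2.66-fold rise. Per length, *Wnt7b* rose from 42.6 ± 11.7 TPM (SD, n = 3) to 98.5 ± 9.09 TPM (SD, n = 3), and it made up 62.5% of the summed ligand TPM in vehicle tumors and 77.1% in RGS tumors.

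*Wnt10b* ranked next after *Wnt7b* among the ligands of all 3 vehicle tumors, and *Wnt11* took that rank in all 3 RGS tumors. In TPM, *Wnt10b* exceeded *Wnt11* by 9.26, 16.0 and 16.5 times in the vehicle tumors, whereas *Wnt11* exceeded *Wnt10b* by 2.10, 3.15 and 6.35 times in the RGS tumors. The order of the pair was thus the same within each group and opposite between them. The share of *Wnt11* in the ligand TPM was 1.2% in vehicle and 9.53% in RGS tumors, and that of *Wnt10b* was 16.1% and 2.77%. The summed ligand TPM was 84.1, 61.9 and 56.9 in the vehicle tumors and 134, 132 and 117 in the RGS tumors. The shares of *Wnt7b*, *Wnt11* and *Wnt10b* did not overlap between groups, and a two-sided exact permutation test gave p = 0.1 for each, the smallest value that 3 against 3 tumors allow. These shares are parts of the same sum, which rose mostly through *Wnt7b*, so they depend on each other. In TPM itself, *Wnt10b* went from a mean of 10.5 in vehicle to 3.58 in RGS tumors. The 3 genes had already been called in the fit.

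Among the other ligands, *Wnt9a* gave 4.51, 3.24 and 4.26 CPM in vehicle and 9.47, 7.46 and 6.61 CPM in RGS tumors, with no overlap. Its log2 fold change of 0.97 (SE 0.39) had an adjusted p of 0.0654 in edgeR, and DESeq2 called it. *Wnt5a*, the ligand best known in melanoma for cell movement, gave 10.7, 8.70 and 5.76 CPM in vehicle and 4.97, 3.62 and 5.69 CPM in RGS tumors. These also did not overlap, but RGS 12 lay just under vehicle 9, and the log2 fold change of -0.82 (SE 0.39) had an adjusted p of 0.117 in edgeR. *Wnt2b*, *Wnt5b*, *Wnt6* and *Wnt7a* had at most 117 counts in any tumor and were not called, with log2 fold changes of 2.19 (SE 1.13), 0.67 (SE 0.95), -3.07 (SE 1.6) and -0.96 (SE 0.87). *Wnt6* had 32, 10 and 33 counts in vehicle and 0, 0 and 5 in RGS tumors, and it was called lower without RGS 12 (adjusted p = 0.0471), which left the RGS group at 0 counts. *Wnt7a* was called lower with limma voom (-1.89) and ranged from -2.50 to -0.47 when single tumors were left out, and *Wnt5b* ranged from -0.0075 to 1.34. The *Wnt5b* locus overlaps *Fbxl14*, which had 694 to 1231 counts, and the strand setting of the counting is not given in the sources used here. The remaining ligands were not tested: *Wnt4* had at most 16 counts, *Wnt1* 4, *Wnt10a* 3 and *Wnt8a* 1, and *Wnt2*, *Wnt3*, *Wnt3a*, *Wnt8b*, *Wnt9b* and *Wnt16* had 0 in every tumor.

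**Figure D2:**
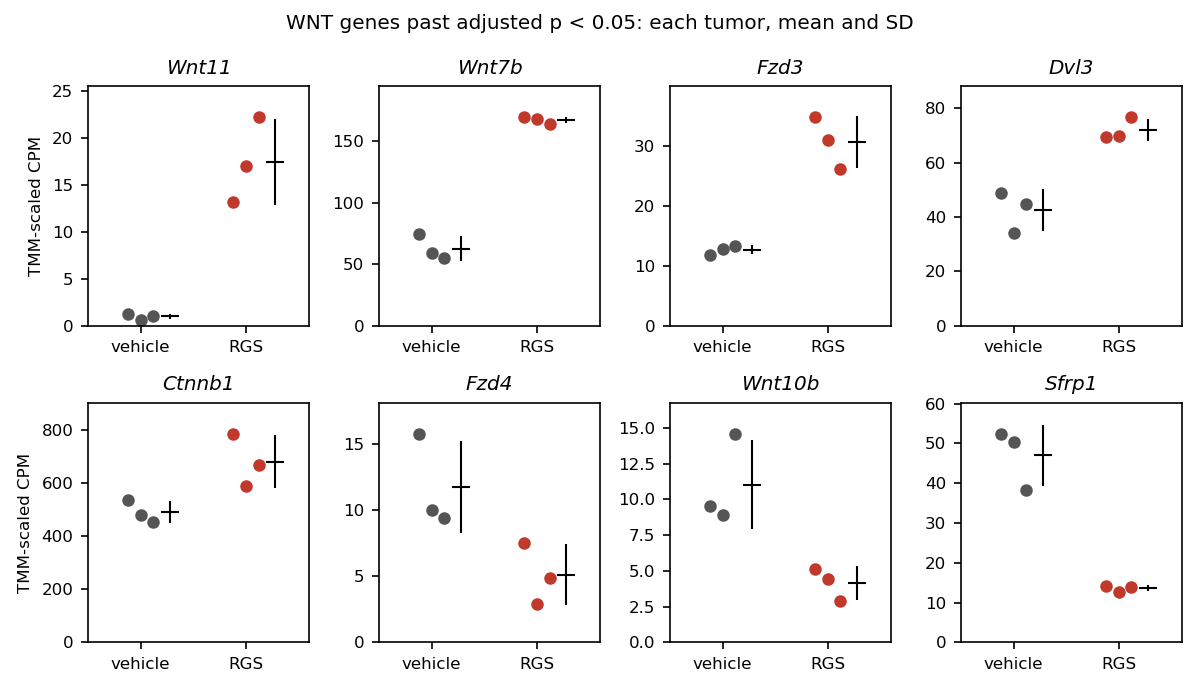
TMM-scaled CPM (y axis, starting at 0) of the 8 called WNT genes in each vehicle and RGS tumor (points), with the group mean and SD beside them. In all 8 panels the 3 RGS tumors lie on one side of the 3 vehicle tumors, with the smallest step for its level in *Ctnnb1*, from 534 to 589 CPM.

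The secretion factors were not called. *Wls*, the carrier that exports WNT proteins, gave 145, 182 and 165 CPM in vehicle and 165, 136 and 179 CPM in RGS tumors, with full overlap and a log2 fold change of -0.03 (SE 0.16, adjusted p = 0.897 in edgeR), which took the opposite sign without vehicle 8 or RGS 11. *Porcn*, the enzyme that adds the lipid, gave 3.53 to 4.42 CPM in vehicle and 1.37 to 3.09 CPM in RGS tumors without overlap, but its log2 fold change of -0.94 (SE 0.57) had an adjusted p of 0.221.

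Among the 8 tested Frizzled receptors, 1 rose and 1 fell. *Fzd3*, a receptor known for axon guidance and planar polarity, gave 11.8, 12.8 and 13.4 CPM in vehicle and 34.8, 31.0 and 26.1 CPM in RGS tumors (ENSMUSG00000007989.7, chr14:65192449-65262463, minus strand). Every RGS tumor was well above every vehicle tumor, and the log2 fold change was 1.27 (SE 0.23, adjusted p = 2.52e-04 in edgeR), a 2.42-fold rise. *Fzd4*, a receptor known for blood vessel growth in the retina, gave 15.8, 10.01 and 9.42 CPM in vehicle and 7.53, 2.94 and 4.89 CPM in RGS tumors (ENSMUSG00000049791.4, chr7:89404355-89413134, plus strand). Its log2 fold change was -1.19 (SE 0.39, adjusted p = 0.0241 in edgeR), and the call was lost without vehicle 7, RGS 11 or RGS 12, with adjusted p up to 0.12.

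*Fzd3* and *Fzd4* were minor receptors. *Fzd7* led in every tumor, with 91.2, 57.8 and 54.3 TPM in vehicle and 70.4, 55.8 and 56.2 TPM in RGS tumors, and it held 54.9% and 51.4% of the summed Frizzled TPM. In CPM it gave 113, 80.2 and 83.8 against 103, 87.5 and 95.6, which overlapped, and its log2 fold change was 0.05 (SE 0.17, adjusted p = 0.866 in edgeR), with the opposite sign under library-size scaling. *Fzd3* went from 2.75% to 5.83% of the Frizzled TPM and *Fzd4* from 4.65% to 1.84%. *Fzd8* gave 10.6 to 19.0 CPM in vehicle and 20.97 to 26.6 CPM in RGS tumors, with a log2 fold change of 0.66 (SE 0.26) and an adjusted p of 0.0551 that passed the threshold in DESeq2 and with RLE factors. *Fzd1*, *Fzd2* and *Fzd5* overlapped between groups, with log2 fold changes of -0.12, 0.22 and -0.03. *Fzd9* had 0, 22 and 11 counts in vehicle and 0, 2 and 0 in RGS tumors and was not called, and *Fzd10* had 0 counts in every tumor.

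The LRP co-receptors were not called in edgeR. With limma voom with quality weights both were called higher, *Lrp5* at 0.75 (adjusted p = 7.61e-04) and *Lrp6* at 0.48 (adjusted p = 0.0163). *Lrp5* gave 44.9, 27.7 and 30.7 CPM in vehicle and 49.8, 52.5 and 45.0 CPM in RGS tumors, a log2 fold change of 0.51 (SE 0.20, adjusted p = 0.0622 in edgeR). The groups were separated only by the narrow step from vehicle 7 to RGS 12. *Lrp6* gave 38.3 to 57.8 CPM and 52.3 to 75.8 CPM, with overlap and a log2 fold change of 0.43 (SE 0.20, adjusted p = 0.103). Per length they were alike in level, at 11.8 ± 4.39 TPM for *Lrp5* and 11.4 ± 3.71 TPM for *Lrp6* in vehicle tumors (SD, n = 3), and their order differed from tumor to tumor. *Ror1*, a receptor for WNT5A, had 27 counts in vehicle 7, 9 in RGS 10 and 0 in the other tumors, and *Ror2* had 4 counts in vehicle 7, 13 in vehicle 9 and 0 elsewhere.

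*Sfrp1*, a secreted protein that binds WNT ligands, fell with RGS (ENSMUSG00000031548.7, chr8:23411502-23449632, plus strand). It gave 52.4, 50.5 and 38.2 CPM in vehicle and 14.2, 12.7 and 13.8 CPM in RGS tumors. The lowest vehicle tumor stood far above all RGS tumors. The log2 fold change was -1.79 (SE 0.21, adjusted p = 3.34e-06 in edgeR), so the level was 3.46-fold lower. *Sfrp1* is also made by fibroblasts. Of 10 fibroblast markers, 8 were tested, of which *Pdgfra*, *Col1a2* and *Col3a1* were lower, *Dcn* was higher and 4 were not called, and *Lum* had 0 counts in every tumor. Their summed level was 397 to 584 CPM in vehicle and 291 to 322 CPM in RGS tumors, and its part in the fall of *Sfrp1* was not tested.

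*Dkk2*, an antagonist that binds the LRP co-receptors, was the most abundant of the 56 genes by TPM in all 3 vehicle tumors, a place that *Ctnnb1* took in all 3 RGS tumors, and it was the main antagonist in every tumor. It gave 499, 432 and 391 CPM in vehicle and 338, 383 and 431 CPM in RGS tumors. In CPM, vehicle 9 lay below RGS 12, so the groups overlapped, and the log2 fold change was -0.20 (SE 0.16, adjusted p = 0.357 in edgeR). In TPM, *Dkk2* did not overlap but nearly touched, at 310.4 in vehicle 9 and 309.6 in RGS 12. Per length it stood at 394 ± 91.8 TPM in vehicle and 297 ± 13.4 TPM in RGS tumors (SD, n = 3), which was 91.4% and 96.7% of the summed antagonist TPM, while the share of *Sfrp1* was 8.25% and 2.93%. *Dkk3* and *Sfrp4* had at most 28 counts and were not called, with log2 fold changes of 0.44 (SE 1.17) and -0.69 (SE 1.53). *Sfrp2* had 19 counts in vehicle 9 and at most 2 elsewhere, *Sfrp5* had 5 in vehicle 8 and 0 elsewhere, and *Dkk4* had 0 in every tumor.

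**Figure D3:**
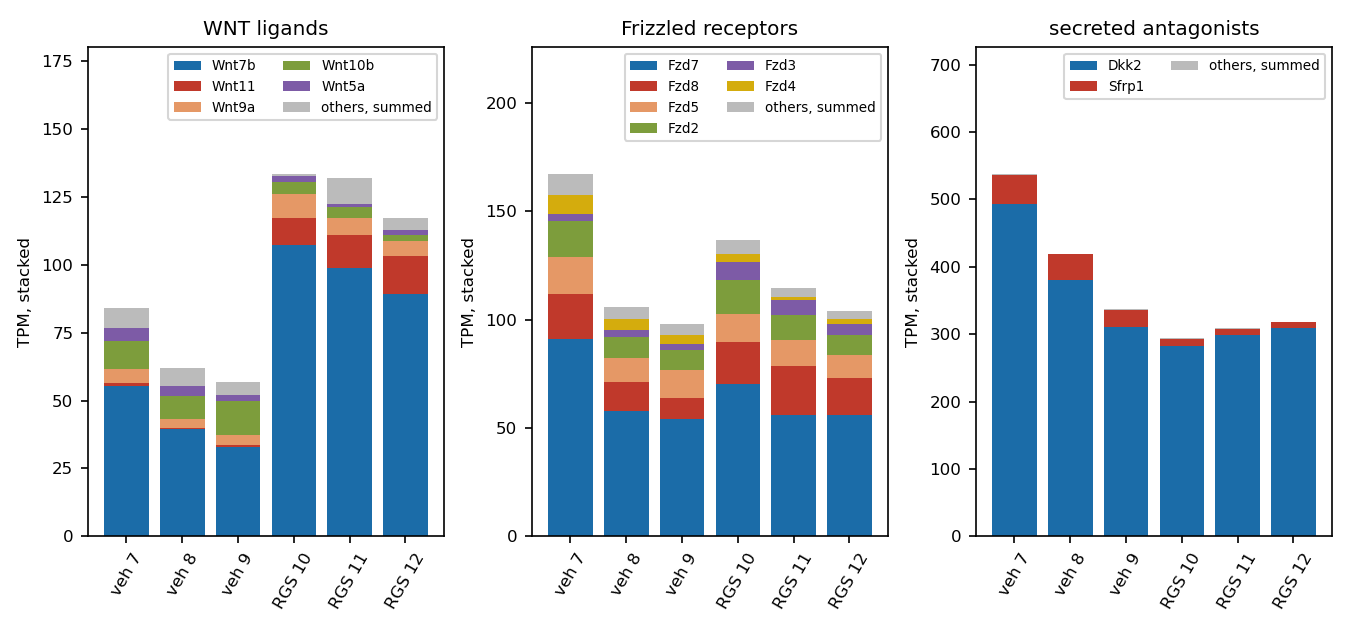
Stacked TPM (y axis, starting at 0) of the WNT ligands, Frizzled receptors and secreted antagonists in each tumor. *Wnt7b*, *Fzd7* and *Dkk2* fill most of each bar, and in the RGS tumors the *Wnt11* layer is wider and the *Wnt10b* and *Sfrp1* layers are narrower than in the vehicle tumors.

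*Dvl3* was the only Dishevelled gene called (ENSMUSG00000003233.12, chr16:20516982-20534010, plus strand). It gave 48.8, 34.0 and 44.7 CPM in vehicle and 69.6, 69.8 and 76.7 CPM in RGS tumors, without overlap. With RGS the log2 fold change was 0.76 (SE 0.18, adjusted p = 0.00316 in edgeR), a 1.69-fold rise. *Dvl1* was the most abundant by length in every tumor, at 119 ± 7.57 TPM in vehicle and 124 ± 24.7 TPM in RGS tumors (SD, n = 3). It gave 172, 184 and 188 CPM in vehicle and 223, 237 and 179 CPM in RGS tumors, a log2 fold change of 0.23 (SE 0.16, adjusted p = 0.265). *Dvl2* gave 60.6 to 90.5 CPM and 45.5 to 73.1 CPM, a log2 fold change of -0.39 (SE 0.20, adjusted p = 0.152). Without RGS 11, its highest RGS tumor, it was called lower at -0.61 (adjusted p = 0.0473). Its locus overlaps *Acadvl*, which had 821 to 1440 counts.

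*Ctnnb1*, which encodes beta-catenin, was higher with RGS by a small step (ENSMUSG00000006932.17, chr9:120929216-120960507, plus strand). It gave 534, 480 and 454 CPM in vehicle and 784, 589 and 665 CPM in RGS tumors. The groups did not overlap, with vehicle 7 at 534 CPM next to RGS 11 at 589 CPM. This was a log2 fold change of 0.47 (SE 0.16, adjusted p = 0.0247 in edgeR), a 1.39-fold rise of the mRNA. The call was lost under library-size scaling (0.33, adjusted p = 0.12) and without vehicle 8, vehicle 9, RGS 10 or RGS 12, with adjusted p from 0.0593 to 0.127. In the destruction complex, *Axin1* gave 66.6 to 74.3 CPM in vehicle and 87.3 to 99.8 CPM in RGS tumors without overlap, a log2 fold change of 0.37 (SE 0.16) with an adjusted p of 0.0809 in edgeR, and DESeq2 called it. *Apc* gave 36.2 to 59.5 CPM and 39.1 to 45.3 CPM, a log2 fold change of -0.06 (SE 0.21) that took the opposite sign without vehicle 7 or RGS 10. RNA counts do not measure the beta-catenin protein.

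None of the 4 TCF and LEF factors was called in edgeR at an adjusted p under 0.05, nor at an unadjusted p under 0.05 (0 of 4) or in DESeq2, and limma voom with quality weights called *Lef1*. *Tcf7* was the most abundant in every tumor by length, at 80.9% of their summed TPM in vehicle and 72.8% in RGS tumors. It gave 58.7, 49.96 and 35.7 CPM in vehicle and 46.4, 30.2 and 36.2 CPM in RGS tumors, which overlapped, with a log2 fold change of -0.36 (SE 0.22, adjusted p = 0.221 in edgeR). *Lef1* gave 4.22, 1.32 and 2.36 CPM in vehicle and 4.64, 6.25 and 4.34 CPM in RGS tumors, with vehicle 7 close to RGS 12, and a log2 fold change of 0.94 (SE 0.54, adjusted p = 0.198). *Tcf7l1* and *Tcf7l2* had log2 fold changes of 0.13 (SE 0.35) and 0.59 (SE 0.31). *Tcf7* and *Lef1* are also T cell genes. Of 10 T cell markers 2 were tested, of which *Trac* was higher, with 0 counts in every vehicle tumor and 30, 16 and 10 in the RGS tumors (adjusted p = 0.00592), and *Lck* was not called. *Cd3e*, *Cd3d*, *Cd3g* and *Cd8a* were at 0 in all 6 tumors, and the summed level of the 10 T cell markers was 0.913 to 3.61 CPM in vehicle and 1.90 to 3.69 CPM in RGS tumors.

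Among the 56 genes, *Axin2*, *Nkd1*, *Rnf43*, *Znrf3*, *Lef1* and *Tcf7* are themselves commonly used readouts of beta-catenin and TCF. None of those tested was called in edgeR, and *Lef1* and *Tcf7* are described above. *Axin2*, the most widely used of them, had 59, 40 and 19 counts in vehicle and 47, 23 and 28 in RGS tumors. In CPM these were 1.68, 1.43 and 0.817 against 2.23, 1.73 and 1.71, so vehicle 7 and RGS 12 nearly touched. The log2 fold change was 0.53 (SE 0.82, adjusted p = 0.665 in edgeR), and at such counts a change of this size was not detectable. Of the feedback inhibitors, *Znrf3*, a ligase that removes Frizzled receptors, gave 12.1, 7.09 and 9.85 CPM in vehicle and 21.7, 6.03 and 10.1 CPM in RGS tumors, with RGS 10 and RGS 11 at opposite ends, a log2 fold change of 0.39 (SE 0.39, adjusted p = 0.479), and the opposite sign without RGS 10. *Nkd2* had 5 to 67 counts and a log2 fold change of -0.23 (adjusted p = 0.884). *Nkd1* had 0 counts in every tumor, and *Rnf43* had 2 in vehicle 8 and 0 elsewhere.

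A list of 38 genes commonly used as readouts of beta-catenin and TCF, 37 of them in the table and 6 of them WNT genes above, gave 26 tested genes, of which 6 were higher, 6 were lower and 14 were not called. The median log2 fold change was 0.04, and the shares of all tested genes called were the 16.3% and 16.5% given above. Higher were *Ppard* (1.83, SE 0.18, adjusted p = 4.19e-07 in edgeR), *Id2* (1.70, SE 0.37, adjusted p = 0.00166), *Sox9* (1.47, SE 0.16, adjusted p = 1.53e-06) and *Notum* (1.34, SE 0.50, adjusted p = 0.0486), with *Nrcam* (1.13) and *Twist1* (0.46) besides, of which *Twist1* lost its call without vehicle 8, vehicle 9, RGS 11 or RGS 12 and with upper-quartile factors or library size only. Lower were the growth factor gene *Bmp4* (-2.96, SE 0.38, adjusted p = 9.18e-06), the mitotic gene *Birc5* (-1.24, SE 0.33, adjusted p = 0.00727), *Myc* (-1.15, SE 0.15, adjusted p = 1.27e-05) and the receptor *Met* (-1.03, SE 0.16, adjusted p = 8.62e-05), with *Ccnd1* (-0.90) and *Apcdd1* (-0.94) besides. *Bmp4* had 692, 458 and 416 counts in vehicle and 72, 15 and 37 in RGS tumors. These genes are also known to respond to other pathways. *Sp5*, *Ascl2* and *Tnfrsf19* had 0 counts in every tumor and *Lgr5* had 6 in RGS 12 only.

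**Figure D4:**
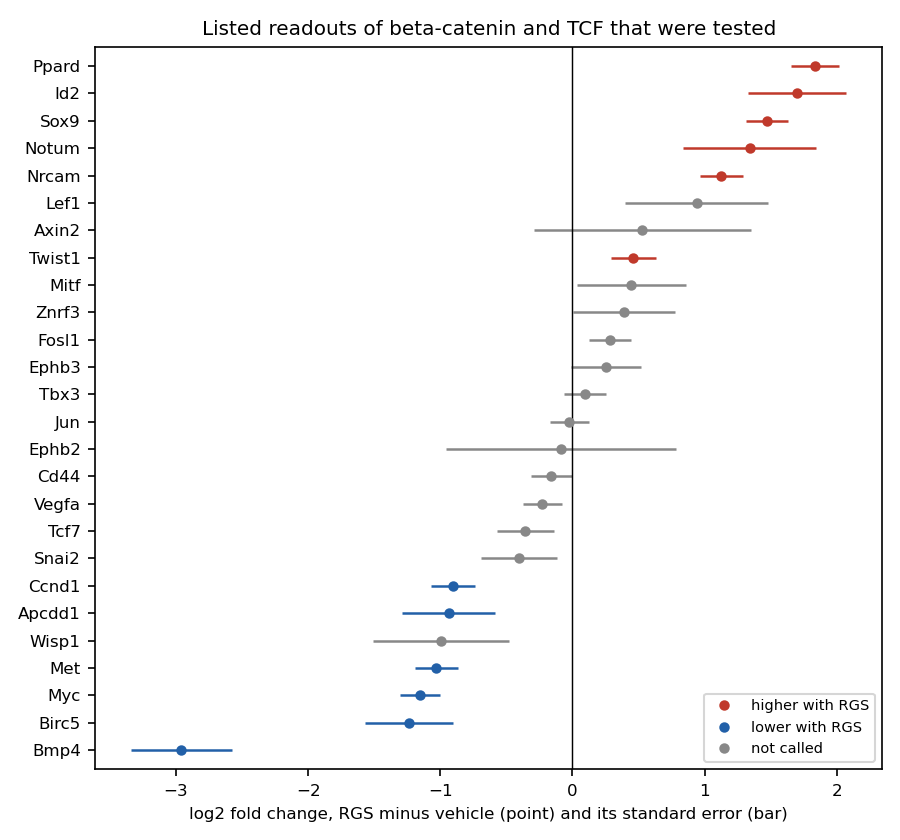
Log2 fold change (RGS minus vehicle, x axis) with its standard error for the 26 tested readout genes of beta-catenin and TCF, colored by the call at an adjusted p under 0.05. Called genes stand on both sides, from *Ppard* at 1.83 to *Bmp4* at -2.96, and *Axin2* and *Lef1* lie to the right of 0 without a call.

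Outside the 56 genes, 75 other genes of the pathway were listed, 73 were in the table and 63 were tested. 14 (22.2%) were higher, 5 (7.94%) were lower and 44 were not called, against 16.3% and 16.5% of all tested genes, with a median log2 fold change of 0.22. Of 13 tested R-spondin receptors and extracellular regulators, 3 (23.1%) were higher and 2 (15.4%) were lower. *Trabd2b*, a membrane protease that cleaves WNT ligands, had 61, 15 and 2 counts in vehicle and 234, 127 and 179 in RGS tumors, a log2 fold change of 3.69 (SE 0.64, adjusted p = 2.17e-04 in edgeR). *Lgr6*, an R-spondin receptor, gave 8.68, 5.56 and 4.94 CPM in vehicle and 52.7, 43.2 and 31.6 CPM in RGS tumors, a log2 fold change of 2.73 (SE 0.27, adjusted p = 4.79e-07). Its relative *Lgr4* moved the other way, from 7.96, 7.06 and 7.61 CPM to 3.36, 3.01 and 1.77 CPM, a log2 fold change of -1.47 (SE 0.44, adjusted p = 0.0149), and lost its call without vehicle 8. *Notum*, which removes the lipid from WNT proteins, and *Apcdd1*, a membrane inhibitor with a log2 fold change of -0.94 (SE 0.35, adjusted p = 0.0486), were at the edge of the threshold. *Notum* lost its call without vehicle 9, RGS 10 or RGS 12 and with limma voom, upper-quartile factors, library size only and filterByExpr. *Apcdd1* lost its call without vehicle 7, vehicle 8, RGS 10 or RGS 12 and with RLE factors and thinned counts.

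Of 28 tested genes of the other intracellular beta-catenin arm, 8 (28.6%) were higher and 2 (7.14%) were lower, against 16.3% and 16.5% of all tested genes. Of the 4 casein kinase genes listed, 2 rose, 1 fell and *Csnk1g1* was not called (0.06, SE 0.22, adjusted p = 0.868): *Csnk1e* rose by 1.03 (SE 0.15, adjusted p = 4.13e-05 in edgeR) and *Csnk1d* by 0.85 (SE 0.15, adjusted p = 3.28e-04) on the log2 scale, and *Csnk1a1*, the kinase that first marks beta-catenin, fell by 0.58 (SE 0.14, adjusted p = 0.00474). *Csnk1e* gave 223 to 274 CPM in vehicle and 454 to 520 CPM in RGS tumors, and *Csnk1a1* gave 446 to 459 CPM and 285 to 324 CPM. *Dact2*, a Dishevelled-binding protein, was higher by 1.24 (SE 0.44, adjusted p = 0.0373) and lost its call without vehicle 7, vehicle 9, RGS 10 or RGS 11 and with limma voom or library size only. *Cdh2*, the N-cadherin that holds beta-catenin at the membrane, was higher by 0.67 (SE 0.17, adjusted p = 0.00527). *Cby1*, a beta-catenin-binding inhibitor, was lower, with 29.3, 47.9 and 53.1 CPM in vehicle and 15.8, 23.7 and 17.2 CPM in RGS tumors and a log2 fold change of -1.20 (SE 0.24, adjusted p = 8.59e-04). The other 4 higher genes, *Gsk3a*, *Tnks2*, *Bcl9* and *Chd8*, had log2 fold changes between 0.41 and 0.58, and none of them was called under library-size scaling, without vehicle 9 or without RGS 12. At least 1 of these 4 also lost its call without vehicle 8, RGS 10 or RGS 11.

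Of 22 tested genes of planar cell polarity and other beta-catenin-independent signaling, 3 (13.6%) were higher, 1 (4.55%) was lower and 18 were not called, against 16.3% and 16.5% of all tested genes. *Rhou*, a WNT-responsive GTPase, gave 52.9, 38.2 and 37.4 CPM in vehicle and 102, 84.7 and 94.6 CPM in RGS tumors, a log2 fold change of 1.13 (SE 0.18, adjusted p = 1.02e-04 in edgeR). *Vangl1*, a polarity membrane protein, gave 18.7 to 22.0 CPM and 31.6 to 38.8 CPM, a log2 fold change of 0.77 (SE 0.20, adjusted p = 0.00669). *Prickle1*, its partner, had 27, 29 and 49 counts in vehicle and 59, 79 and 84 in RGS tumors, a log2 fold change of 1.83 (SE 0.63, adjusted p = 0.0332), and lost its call without vehicle 7, vehicle 8, RGS 11 or RGS 12. *Nfatc1*, a factor of the calcium branch, had a log2 fold change of -1.17 (SE 0.37, adjusted p = 0.0218) and lost its call without vehicle 7 or RGS 12 and with limma voom.

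Marker levels of other cell types differed between the groups beside these results. The summed level of 7 mural markers was 228 to 307 CPM in vehicle and 523 to 577 CPM in RGS tumors. The rise of this sum rested on *Rgs5*, which went from 48, 40 and 26 counts to 8728, 4882 and 6916. In CPM these were 1.12 to 1.43 in vehicle and 368 to 423 in RGS tumors. Of the 6 mural markers tested, 3 were higher (*Rgs5*, *Mcam* and *Des*) and 3 were lower. *Mcam* rose by 0.46 on the log2 scale, and *Des* had only 0 counts in every vehicle tumor and 24, 5 and 5 in the RGS tumors. The lower ones were *Acta2*, *Notch3* and *Cspg4*, which fell by 2.28, 1.27 and 0.87 on the log2 scale. The 10 endothelial markers summed to 9.36 to 14.4 CPM and 25.5 to 33.4 CPM, mostly from *Egfl7*. Of the 6 tested, 2 were higher (*Egfl7* and *Cdh5*) and 4 were not called. *Pecam1* had at most 22 counts in any tumor, *Tek* 14, *Kdr* 6 and *Tie1* 3, and *Emcn* and *Robo4* had 0 in every tumor. The 10 keratinocyte markers summed to 4.49 to 7.76 CPM and 33.4 to 40.2 CPM, mostly from *Sfn*, with *Krt1*, *Trp63* and *Dsg3* at 0. The 10 myeloid markers summed to 59.4 to 64.7 CPM and 65.9 to 88.7 CPM, almost all from *Cd68*. The part of these markers in the changes of the WNT genes was not tested.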

How the data were processed

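Bulk RNA sequencing of 6 YUMM3.3 tumors, 3 vehicle and 3 RGS, was analysed. The deposited table holds unnormalized whole-number counts for each gene and tumor, with gene length and position. The submitters' processing notes name cutadapt 1.18, FastQC 0.11.7, STAR 2.7.1a, featureCounts 1.6.4 and mm10, and reads were paired, 150 bases long. Strand setting and handling of multiply mapped reads are not given in the sources used here. Positions of 52 of the 56 genes were the same in GENCODE M21. The other 4, *Wnt8b*, *Fzd8*, *Apc* and *Tcf7l2*, were not found there under their versioned gene identifiers, so their positions could not be compared.

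Columns were matched to tumors by treatment and number. No pair of tumors of 1 group agreed within sampling noise (chi-square per degree of freedom at least 18.5). Genes with a median of at least 5 counts in at least 1 group were tested with edgeR 4.0.16 (TMM, quasi-likelihood, R 4.3.3), with Benjamini-Hochberg adjustment over all 15355 tested genes and a threshold of 0.05. DESeq2 1.42.0, limma 3.58.1 (voom), other scalings and filters, thinned counts and leaving out each tumor were tried. The code was tested on simulated data. P-values set the difference between the groups against the spread between these tumors.

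The genes and lists were chosen with earlier results of these data known. Every WNT gene was named, with values per tumor for those called and changed by at least 1 on the log2 scale, for *Ctnnb1*, *Axin2*, *Lef1*, *Tcf7*, *Wnt5a* and for the most abundant gene of each role, and up to 4 genes per direction from each other list (adjusted p under 0.05, mean of at least 1 CPM). *Dvl3*, *Nrcam*, *Twist1*, *Ccnd1*, *Gsk3a*, *Tnks2*, *Bcl9*, *Chd8* and *Ptprc* were described further after their values were seen.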

Additional observations from a re-analysis of the deposited data

How the results depend on the processing

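At counts as low as those of *Axin2*, changes of its size could not be resolved. The cause of each change below was not tested. The count of higher WNT genes (5) was 8 with DESeq2, 11 with limma voom with quality weights, 3 when a log2 change of 1 in size was also required, and 4 to 8 when single tumors were left out. The count of lower WNT genes was 2 to 3 without single tumors, but the genes in it changed. Without RGS 11, *Fzd4* lost its call and *Dvl2* gained one, and without RGS 12, *Fzd4* lost its call and *Wnt6* gained one. The count of higher genes among the other pathway genes (14) was 21 with limma voom, 8 with library size only, 7 at an adjusted p under 0.01, 7 at the fold limit and 9 to 18 without single tumors, and that of lower genes (5) was 2, 3 and 3 to 6 under the last 3 settings. Readout counts (6 and 6) stayed within 4 to 7. Calls over all tested genes moved as well. Higher were 2503 in the main fit, 2767 with DESeq2, 3407 with limma voom and 1870 with library size only. At the fold limit 1168 were higher, and without single tumors 1776 to 2698. Lower were 2533 in the main fit, 1450 at the fold limit and 1717 to 2551 without single tumors. These counts are out of 15355 tested genes, except without single tumors, where 15942 to 16199 genes were tested. Over all 605 refits of single WNT genes, 558 kept side and sign, 16 gained a call, 9 lost one and 22 changed sign, all of the latter in uncalled genes. Signs changed with limma voom for *Fzd1* (0.20), *Fzd5* (0.18) and *Apc* (0.14), with library size only for *Fzd7* (-0.10) and *Tcf7l1* (-0.022), and with thinned counts for *Fzd5* (0.036). Without single tumors the log2 fold changes ranged from -0.0075 to 1.34 for *Wnt5b*, from -0.14 to 0.067 for *Wls*, from -0.31 to 0.27 for *Fzd1*, from -0.15 to 0.047 for *Fzd5*, from -0.023 to 0.22 for *Fzd7*, from -0.82 to 0.90 for *Dkk3*, from -0.18 to 0.21 for *Apc*, from -0.34 to 0.34 for *Tcf7l1*, from -0.73 to 0.49 for *Nkd2* and from -0.26 to 0.71 for *Znrf3*. Of the 29 called pathway and readout genes outside the 56, 18 were called in all 16 alternatives. No paired analysis was possible because the groups share no replicate number.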
